A study of Homo sapiens with 8 samples.

Results

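Polycomb repressive complex 2 (PRC2) was followed here through 10 of the 22808 gene symbols in the count table, chosen by name as the catalytic, core and accessory subunit genes of the complex: EZH1, EZH2, EED, SUZ12, JARID2, RBBP4, RBBP7, PHF19, MTF2 and PHF1. All 10 were measured and all 10 passed the filter on low counts. RD18, a human cell line of fusion-negative rhabdomyosarcoma, the skeletal-muscle-like tumour without a PAX-FOXO1 fusion, was used for both groups. The miRNA group of 4 libraries received miR-449a with miR-340, read here as its 5p strand, and the vehicle group of 4 libraries received the transfection reagent lipofectamine alone. The labels name no control RNA for the vehicle group, and an effect of the microRNA pair and one of any transfected RNA cannot be told apart. Both groups were taken at 60 h, and bulk RNA was sequenced after selection of mRNA. Separate cultures are not stated for the replicates, and p-values then describe the spread between libraries, which may be technical. In bulk RNA, fewer cells of a type and less RNA per cell cannot be told apart.

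Library totals ran from 2567737 to 5569342 counts. Levels are given as CPM, read counts scaled to a common library total by the trimmed mean of M values (TMM). The correlation of log2 CPM was at least 0.972 within groups and at most 0.859 between them. Most muscle lineage markers were present in both groups, with MYOD1 at 108 ± 3.72 CPM in miRNA libraries and 204 ± 21.7 CPM in vehicle libraries (SD, n = 4 each). MYOG was near the floor in miRNA libraries, at 0.646 ± 0.372 CPM, and averaged 10.4 ± 1.89 CPM in vehicle libraries. Summed over 6 muscle and rhabdomyosarcoma markers, levels ran from 800 to 832 CPM in miRNA libraries and from 1206 to 1241 CPM in vehicle libraries. CHRNA1 made up most of these sums, averaging 624 CPM in miRNA libraries and 814 CPM in vehicle libraries. Each of the 6 markers was lower in every miRNA library than in any vehicle library. Over all tested genes, 58.9% had no overlap between the groups, in either direction. The measured leukocyte, endothelial and epithelial markers, 2 of 3 in each list, summed to at most 2.39, 1.29 and 2.58 CPM in any miRNA library and to at most 2.76, 0.674 and 0.418 CPM in any vehicle library.

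PRC2 is the enzyme complex that methylates a lysine in the tail of histone H3, a mark of silenced developmental genes. EZH2 or its paralog EZH1 carries the methyltransferase activity, EED reads the mark and stimulates the enzyme, SUZ12 is the scaffold, and RBBP4 or RBBP7 binds histones. PHF1, MTF2 and PHF19, the 3 mammalian homologs of fly Polycomb-like, define 1 form of the complex, and JARID2 with AEBP2 defines another. EZH2 is the form of dividing cells and is a known target of E2F factors, while EZH1 is typical of resting and differentiated cells. In muscle precursors EZH2 is known to hold muscle genes silent.

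The mature sequences of the transfected microRNAs, from RefSeq on GRCh38.p14, are shown because the site search below rests on them. Capitals mark the seed, bases 2 to 8.
miR-449a: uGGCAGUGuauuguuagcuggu
miR-340-5p: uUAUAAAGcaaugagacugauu
Both are encoded on the minus strand of chromosome 5, at chr5:55170586-55170607 for miR-449a and chr5:180015361-180015382 for miR-340-5p. The seed of miR-449a is identical to that of miR-34a-5p. A site was counted where the longest annotated 3′ UTR of a gene (GENCODE 29) matched seed bases 2 to 8, or bases 2 to 7 followed by an A, which in the transcript strand reads CACTGCC or ACTGCCA for miR-449a and CTTTATA or TTTATAA for miR-340-5p. None of the 10 genes held a match to all of bases 2 to 8. With the other form, 11 sites lay in 6 genes: PHF19 held a site of miR-449a only, JARID2 held 1 site of each microRNA, and EED, SUZ12, RBBP4 and MTF2 held sites of miR-340-5p only. EZH2, EZH1, RBBP7 and PHF1 held none. The sites of miR-449a and the first 2 in each gene with more than 1 site of miR-340-5p are shown. Each has 11 flanking bases on each side, capitals marking the matched bases.
PHF19, miR-449a: atagctgcattACTGCCAactgaccttat
JARID2, miR-449a: tgccagtggtgACTGCCAggaacgtccta
SUZ12, miR-340-5p, first of 4: tgctatgttggTTTATAAgattacagacc
SUZ12, miR-340-5p, second of 4: catattctttaTTTATAAaggatcaatgc
MTF2, miR-340-5p, first of 2: tacctcttgttTTTATAAagtgtaccaag
MTF2, miR-340-5p, second of 2: ttatttgactgTTTATAAagaaagttgct
On GRCh38 the matched bases lie in 3′ UTR exons at chr9:120855778-120855784 on the minus strand for PHF19, and on the plus strand at chr6:15521708-15521714 for JARID2, chr17:31999681-31999687 and chr17:32000213-32000219 for SUZ12, and chr1:93138172-93138178 and chr1:93138489-93138495 for MTF2.

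Most genes of the complex were lower in cells that received the microRNA pair, but not all of them. Of the 10 genes, 7 were called lower in miRNA libraries, 2 were called higher and 1 did not pass (edgeR quasi-likelihood test, Benjamini-Hochberg adjusted p under 0.05 over 12366 tested genes). Over all tested genes, 67.3% were called, 34% as lower and 33.4% as higher, so a call in itself is common in these data. With library size as the only scaling, the calls over all tested genes split into 4890 higher and 3453 lower. For 9 of the 10 genes the miRNA and vehicle libraries shared no range of values, as was so for 58.9% of all tested genes. The median log2 fold change, miRNA over vehicle, was -0.70 for the 10 genes and -0.00 for all tested genes. PHF19, EZH2 and RBBP7 fell furthest, and EZH1 and MTF2 rose.

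**Figure D1:**
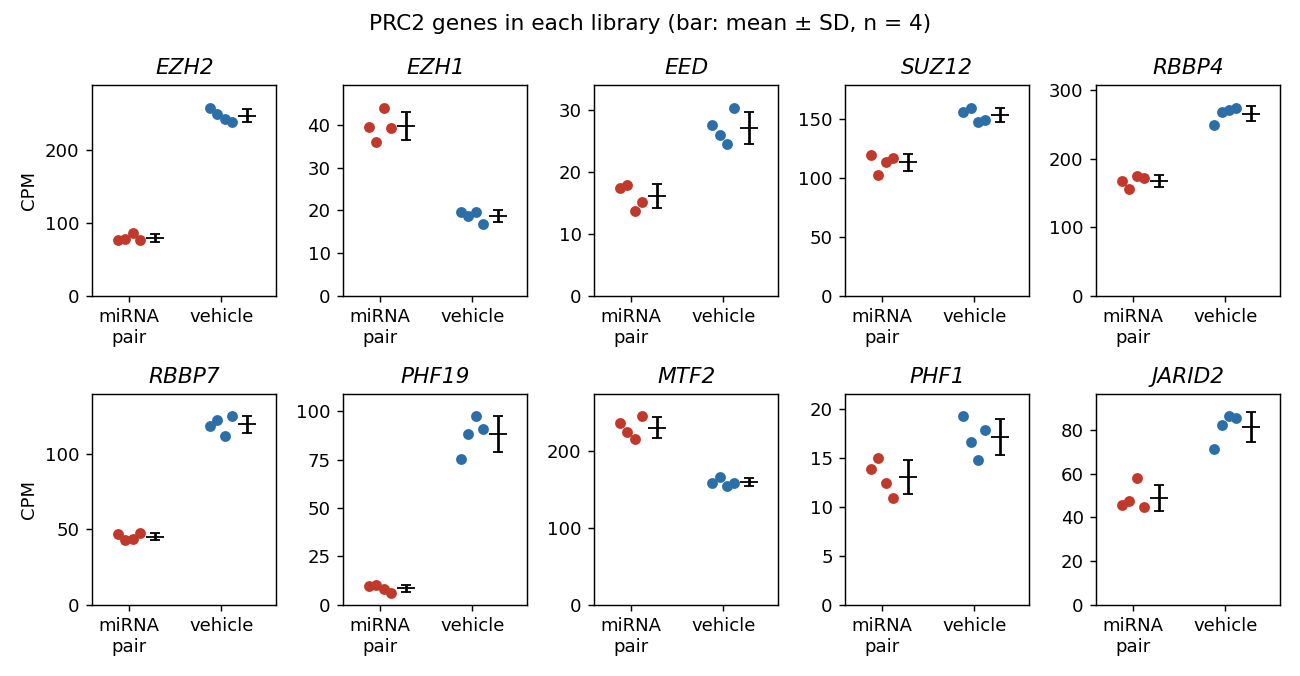
Level of each PRC2 gene (CPM, vertical axes from 0) in the 4 miRNA and 4 vehicle libraries, with the mean and SD beside the points. EZH1 and MTF2 sit higher in all 4 miRNA libraries, PHF1 overlaps between the groups, and the other 7 genes sit lower in all 4 miRNA libraries.

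The catalytic paralogs moved in opposite directions. EZH2 (chromosome 7, 148807383 to 148884321, minus strand, GRCh38) had 76.3, 78.1, 86.4 and 76.3 CPM in miRNA libraries, against 258, 249, 243 and 238 CPM in vehicle libraries. All 4 miRNA libraries lay far below all 4 vehicle libraries. EZH2 averaged 79.3 ± 4.83 CPM in miRNA libraries and 247 ± 8.74 CPM in vehicle libraries (SD, n = 4 each), a log2 fold change of -1.64 (SE 0.07, edgeR adjusted p = 3.07e-29). That fall ranked 660th from the lowest of the 12366 tested genes. EZH1 (chromosome 17, 42700275 to 42745049, minus strand) had 39.6, 36.0, 44.1 and 39.3 CPM in miRNA libraries, against 19.7, 18.6, 19.5 and 16.8 CPM in vehicle libraries. All 4 miRNA libraries were higher. The log2 fold change of EZH1 was 1.08 (SE 0.13, edgeR adjusted p = 1.28e-10), a 2.12-fold rise, 1344th from the highest of all tested genes.

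Within a library the 2 catalytic genes can be set against each other without any scaling between libraries. For each count of EZH1 there were 1.93, 2.17, 1.96 and 1.94 counts of EZH2 in miRNA libraries, against 13, 13.3, 12.4 and 14.0 in vehicle libraries. The ratio was 6.59-fold lower with the microRNAs, and its groups did not overlap (exact permutation test over 8 libraries, two-sided, p = 0.0286, the smallest that 4 against 4 allows). Corrected for exon length, EZH2 made up 75.2 ± 1.02% of the summed EZH1 and EZH2 level in miRNA libraries and 95.3 ± 0.240% in vehicle libraries (SD, n = 4 each). EZH2 thus remained the more abundant catalytic transcript in all 8 libraries.

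The other core genes fell, by smaller factors than EZH2 did. EED (chromosome 11, 86244544 to 86278813, plus strand), the reader of the mark, had 17.4, 17.9, 13.8 and 15.1 CPM in miRNA libraries, against 27.6, 25.9, 24.5 and 30.4 CPM in vehicle libraries. All miRNA libraries were lower, with a log2 fold change of -0.72 (SE 0.15, edgeR adjusted p = 2.00e-05). SUZ12 (chromosome 17, 31937018 to 32001045, plus strand), the scaffold, had 119, 103, 114 and 117 CPM in miRNA libraries, against 156, 160.0, 148 and 149 CPM in vehicle libraries. It showed the smallest of the 7 falls, with a log2 fold change of -0.44 (SE 0.07, edgeR adjusted p = 4.45e-07) and no overlap between groups. A partly duplicated copy of SUZ12 is listed apart as SUZ12P1, at 9.30 ± 2.22 CPM in miRNA libraries and 10.9 ± 3.68 CPM in vehicle libraries (SD, n = 4 each), and reads may have been split between the copies.

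EZH2 fell relative to EED and to SUZ12, the 2 core partners it was set against. There were 4.37, 4.35, 6.21 and 5.00 counts of EZH2 per count of EED in miRNA libraries, against 9.29, 9.58, 9.88 and 7.80 in vehicle libraries, a ratio 1.85-fold lower. There were 0.639, 0.760, 0.761 and 0.650 counts of EZH2 per count of SUZ12 in miRNA libraries, against 1.65, 1.56, 1.64 and 1.59 in vehicle libraries, a ratio 2.30-fold lower. Neither ratio overlapped between groups (exact permutation test, two-sided, p = 0.0286 for each, the smallest possible).

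The histone-binding paralogs both fell, RBBP7 further than RBBP4. RBBP7 (chromosome X, 16839283 to 16870414, minus strand) had 47.0, 42.8, 43.4 and 47.6 CPM in miRNA libraries, against 119, 123, 112 and 125 CPM in vehicle libraries, a log2 fold change of -1.41 (SE 0.09, edgeR adjusted p = 1.45e-21). RBBP4 (chromosome 1, 32651142 to 32686211, plus strand) had 167, 155, 176 and 173 CPM in miRNA libraries, against 250.2, 268, 272 and 275 CPM in vehicle libraries, a log2 fold change of -0.67 (SE 0.06, edgeR adjusted p = 2.33e-14). Neither gene overlapped between groups. The count ratio of RBBP4 to RBBP7 was 3.55, 3.62, 4.04 and 3.62 in miRNA libraries, against 2.10, 2.18, 2.42 and 2.20 in vehicle libraries, 1.67-fold higher (exact permutation test, two-sided, p = 0.0286, the smallest possible). Corrected for exon length, RBBP4 made up 55.8 ± 1.44% of the summed level of the pair in miRNA libraries and 43.0 ± 1.46% in vehicle libraries (SD, n = 4 each). These shares depend on the length given to RBBP4, 8026 exon bases, with a longest annotated 3′ UTR of 6506. Which 3′ ends were in use was not tested. The annotation places SYNC on the opposite strand of RBBP4, with 1706 shared exonic bases, and TXLNG on the opposite strand of RBBP7, with 179. The strand setting of the counting is not given in the sources used here. SYNC averaged 1.03 CPM in miRNA libraries and 1.97 CPM in vehicle libraries, and TXLNG averaged 94.1 CPM in miRNA libraries and 84.5 CPM in vehicle libraries (edgeR adjusted p = 0.0824). RBBP4 has processed pseudogenes, the most counted of which, RBBP4P5, averaged 2.58 CPM in miRNA libraries and 4.62 CPM in vehicle libraries.

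Among the Polycomb-like genes, which help to bring the complex to chromatin, PHF19 and MTF2 moved in opposite directions. PHF19 (chromosome 9, 120855652 to 120894896, minus strand) had 9.41, 9.89, 8.26 and 5.79 CPM in miRNA libraries, against 75.3, 88.5, 97.5 and 90.9 CPM in vehicle libraries. These rest on 53, 58, 24 and 18 counts in miRNA libraries and on 180, 342, 434 and 362 counts in vehicle libraries. The highest miRNA library was far below the lowest vehicle library. PHF19 was 10.2-fold lower (log2 fold change -3.35, SE 0.13, edgeR adjusted p = 3.31e-31), the 137th lowest of the 12366 tested genes.

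MTF2 (chromosome 1, 93079235 to 93139081, plus strand) had 238, 225, 216 and 246 CPM in miRNA libraries, against 159, 167, 155 and 159 CPM in vehicle libraries. All miRNA libraries were higher, with a log2 fold change of 0.53 (SE 0.06, edgeR adjusted p = 1.59e-10). PHF1 (chromosome 6, 33410399 to 33416453, plus strand) had 13.8, 15.01, 12.4 and 10.9 CPM in miRNA libraries, against 19.2, 16.6, 14.8 and 17.8 CPM in vehicle libraries. The groups overlapped by 1 library on each side, and PHF1 did not pass (log2 fold change -0.35, SE 0.17, edgeR adjusted p = 0.0694). Without vehicle replicate 3, which held the lowest vehicle value, PHF1 passed as lower (log2 fold change -0.42, edgeR adjusted p = 0.0446). PHF1 shares 12 exonic bases with CUTA on the opposite strand.

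MTF2 took a larger part of the Polycomb-like transcripts with the microRNAs. Corrected for exon length, MTF2 made up 88.4 ± 1.88% of the summed level of the 3 genes in miRNA libraries and 60.0 ± 1.63% in vehicle libraries (SD, n = 4 each). PHF19 made up 2.78 ± 0.631% in miRNA libraries and 28.6 ± 2.75% in vehicle libraries, and PHF1 made up 8.86 ± 1.26% in miRNA libraries and 11.4 ± 1.41% in vehicle libraries. For each count of MTF2 there were 0.0399, 0.0443, 0.0390 and 0.0242 counts of PHF19 in miRNA libraries, against 0.473, 0.530, 0.631 and 0.571 in vehicle libraries. That ratio was 15.2-fold lower, and the ratio of PHF1 to MTF2 was 1.89-fold lower (exact permutation test, two-sided, p = 0.0286 for each, the smallest possible).

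**Figure D2:**
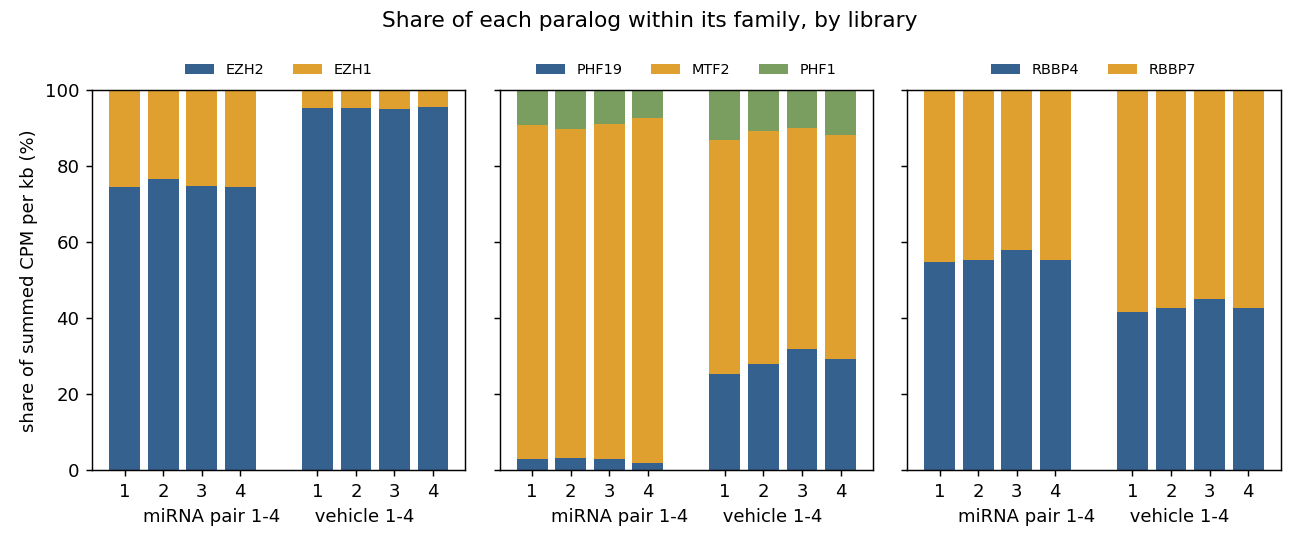
Share of each paralog in the summed level of its family (CPM per kilobase of exon, percent, stacked to 100) in the 4 miRNA and 4 vehicle libraries. EZH1 is the smaller part in every library but larger in the miRNA libraries, and PHF19 nearly disappears beside MTF2. RBBP4 overtakes RBBP7 on this length-corrected scale, while in counts RBBP4 is the larger in both groups.

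JARID2 (chromosome 6, 15246296 to 15522040, plus strand), a DNA-binding relative of histone demethylases that recruits the other form of the complex, had 45.8, 47.4, 57.8 and 44.7 CPM in miRNA libraries, against 71.1, 82.1, 86.2 and 85.7 CPM in vehicle libraries. All miRNA libraries were lower, with a log2 fold change of -0.75 (SE 0.10, edgeR adjusted p = 6.34e-10). For each count of MTF2 there were 0.193, 0.211, 0.269 and 0.182 counts of JARID2 in miRNA libraries, against 0.447, 0.491, 0.558 and 0.538 in vehicle libraries, 2.40-fold lower (exact permutation test, two-sided, p = 0.0286, the smallest possible). In all, 7 such ratios were compared, and Benjamini-Hochberg adjustment over the 7 left each p at 0.0286.

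**Figure D3:**
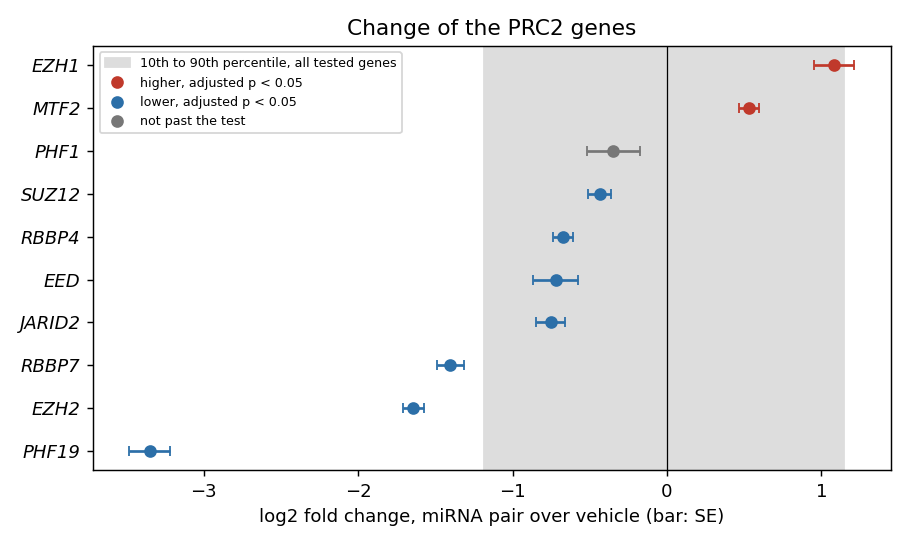
Log2 fold change of each PRC2 gene, miRNA pair over vehicle (horizontal axis), with its SE, beside the range from the 10th to the 90th percentile of all tested genes (-1.18 to 1.15, grey). PHF19, EZH2 and RBBP7 lie below that range, and EZH1 lies close to its upper end.

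The order of the subunit transcripts changed between the groups when levels were expressed per kilobase of exon (CPM per kilobase, union of the exons of GENCODE basic transcripts). In miRNA libraries MTF2 was highest at 56.0 ± 3.23, followed by EZH2 at 25.9 ± 1.58, SUZ12 at 25.2 ± 1.65, RBBP4 at 20.9 ± 1.11 and RBBP7 at 16.6 ± 0.907 CPM per kilobase (SD, n = 4). Below these came EZH1 at 8.56 ± 0.715, JARID2 at 8.32 ± 1.02, PHF1 at 5.60 ± 0.758, EED at 4.42 ± 0.535 and PHF19 at 1.75 ± 0.385. In vehicle libraries EZH2 was highest at 80.7 ± 2.85, followed by RBBP7 at 43.9 ± 2.05, MTF2 at 38.8 ± 1.28, SUZ12 at 34.1 ± 1.32 and RBBP4 at 33.2 ± 1.38 CPM per kilobase. Below these came PHF19 at 18.5 ± 1.96, JARID2 at 13.8 ± 1.19, EED at 7.46 ± 0.701, PHF1 at 7.35 ± 0.807 and EZH1 at 4.02 ± 0.282. EZH2 thus stood second of the 10 with the microRNAs and first with vehicle, and EZH1 stood sixth with the microRNAs and last with vehicle. Neighbours whose libraries overlapped were EZH2 and SUZ12, EZH1 and JARID2, and PHF1 and EED in the miRNA group, and SUZ12 and RBBP4, and EED and PHF1, in the vehicle group. With the length of the longest coding transcript instead, EED averaged 7.22 CPM per kilobase and stood above PHF1 in miRNA libraries too.

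The changes of the 10 genes can be read beside their sites. PHF19, with 1 site of miR-449a, fell furthest, and JARID2, with 1 site of each microRNA, fell. EED and RBBP4, with 1 site of miR-340-5p each, and SUZ12, with 4, fell, while MTF2, with 2, rose. EZH2 and RBBP7 fell and EZH1 rose with no site of either kind in their annotated 3′ UTRs. The 3′ UTR searched for EZH2 has 262 bases, and 4.6% of 651 tested genes with a 3′ UTR within 25% of that length held a site of miR-449a and 7.5% one of miR-340-5p. For PHF19, whose 3′ UTR has 2292 bases, 29.2% of 1970 such genes held a site of miR-449a. For MTF2, 46.6% of 2000 such genes held a site of miR-340-5p, and for SUZ12 46.4% of 2013. The same share was 77.8% of 733 for RBBP4, whose 3′ UTR has 6506 bases, and 19.4% of 1404 for EED. For JARID2, 24.8% of 1988 such genes held a site of miR-449a and 41.6% one of miR-340-5p. Across all 10522 tested genes with a matched 3′ UTR, the median log2 fold change was -0.13 for the 1336 with sites of miR-449a only, 0.07 for the 2826 with sites of miR-340-5p only, -0.11 for the 1227 with both and 0.06 for the 5133 with neither. A match is a description of letters, and its part in any change was not tested.

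Promoter sequence was compared for the 2 catalytic paralogs, because they moved in opposite directions and EZH2 is a known E2F target. The words TTTCGCGC, TTTGGCGC, TTTCCCGC and TTTGCCGC, forms of the E2F consensus, were searched on both strands of the 300 bases around each RefSeq gene start (250 before, 50 after, GRCh38.p14). EZH2 held 1 match, at base 252 of the window counted from 1 at its first base, and EZH1 held 1, at base 136 and on the opposite strand of the gene. SUZ12 and MTF2 also held 1 each, and the other 6 windows held none. Only the first listed start of each PRC2 gene was used. The PHF19 window, chr9:120868862-120869161, lies inside that minus-strand gene, whose annotation reaches base 120894896. The PHF1 window, chr6:33410764-33411063, lies inside that plus-strand gene, annotated from base 33410399. Other starts of these genes were not searched. A match was present in 3.3% of 35116 promoter windows and in 5.6% of 8750 tested genes, each by its first listed window. The genes with a match thus include 2 that fell and 2 that rose. Both windows are on the minus strand, at chr7:148884242-148884541 for EZH2 and chr17:42744991-42745290 for EZH1, and capitals mark the match.
EZH2 promoter: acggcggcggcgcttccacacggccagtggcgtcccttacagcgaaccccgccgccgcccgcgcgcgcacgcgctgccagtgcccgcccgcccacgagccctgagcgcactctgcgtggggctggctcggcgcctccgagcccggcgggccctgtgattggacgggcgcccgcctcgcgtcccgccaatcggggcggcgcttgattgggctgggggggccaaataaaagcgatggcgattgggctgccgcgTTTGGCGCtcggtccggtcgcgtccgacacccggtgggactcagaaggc
EZH1 promoter: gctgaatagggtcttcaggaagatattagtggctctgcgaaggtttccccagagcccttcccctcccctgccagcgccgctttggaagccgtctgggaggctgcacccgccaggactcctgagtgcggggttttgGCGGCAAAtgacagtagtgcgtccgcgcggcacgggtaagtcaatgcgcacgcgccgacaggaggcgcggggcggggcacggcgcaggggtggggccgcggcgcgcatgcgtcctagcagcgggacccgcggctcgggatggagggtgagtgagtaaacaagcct

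Genes of dividing cells fell together with EZH2. All 20 of 20 tested genes listed as S-phase genes were called lower in miRNA libraries, as were 34% of all tested genes. Not all of the listed genes are limited to that phase of the cell cycle. Their median log2 fold change was -2.80, and their part in the fall of EZH2, PHF19 and RBBP7 was not tested. RRM2 and TYMS, enzymes of deoxynucleotide supply, were 27.9-fold and 29.8-fold lower. RRM1, the partner of RRM2, was 4.10-fold lower, and MCM2, of the replicative helicase, 8.40-fold lower. The range over the 20 genes was -5.31 to -1.42 on the log2 scale, and the fall of EZH2 lay inside it near its small end.

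Other subunits of PRC2 were split. Of the 4 measured accessory genes outside the 10, 2 rose and 2 fell, beside 33.4% higher and 34% lower over all tested genes. LCOR, whose longer product PALI1 binds PRC2, averaged 156 ± 12.9 CPM in miRNA libraries and 73.7 ± 11.5 CPM in vehicle libraries (SD, n = 4 each), a 2.14-fold rise, and its relative LCORL rose 1.80-fold. AEBP2, the partner of JARID2, was 1.55-fold lower. C17orf96, the gene of the elongin-binding subunit EPOP, averaged 6.79 ± 1.48 CPM in miRNA libraries and 9.54 ± 3.39 CPM in vehicle libraries (edgeR adjusted p = 0.0313), a call that was lost without vehicle replicate 2, 3 or 4 or miRNA replicate 1 or 2 (adjusted p from 0.0514 to 0.213).

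Polycomb repressive complex 1, which reads the mark and adds ubiquitin to histone H2A, changed in both directions. Its 24 tested genes had a median log2 fold change of -0.11, with 9 called lower, 6 called higher and 9 not past the threshold. Calls in both directions were common throughout, at 34% lower and 33.4% higher over all tested genes. CBX2, a reader subunit, averaged 8.32 ± 1.36 CPM in miRNA libraries and 31.4 ± 3.52 CPM in vehicle libraries (SD, n = 4 each), 3.64-fold lower. SCMH1 was 3.63-fold lower and YAF2 2.45-fold lower. PHC3, a polyhomeotic subunit, rose 2.21-fold.

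Genes listed as opposing Polycomb, most of them enzymes, also changed in both directions. Of 14 tested genes, 7 rose, 4 fell and 3 did not pass (median log2 fold change 0.10), beside 33.4% higher and 34% lower over all tested genes. The demethylase gene KDM6B had 58.4, 64.0, 48.9 and 65.0 CPM in miRNA libraries, against 22.6, 24.3, 23.4 and 23.1 CPM in vehicle libraries, a 2.54-fold rise (edgeR adjusted p = 1.19e-15). Every miRNA library was higher. KDM6A, the X-linked demethylase gene of the same mark, averaged 17.96 ± 2.75 CPM in miRNA libraries and 17.8 ± 2.43 CPM in vehicle libraries (SD, n = 4 each) and did not pass (edgeR adjusted p = 0.928). WHSC1, which encodes the methyltransferase NSD2 of another histone H3 lysine, was 4.90-fold lower, ASXL1 1.79-fold lower and KMT2C 1.78-fold higher.

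RBBP4 and RBBP7 also serve other complexes, so the genes of those were examined. Of 23 tested genes of NuRD, CAF-1, SIN3, NURF and the HAT1 acetyltransferase, 13 fell, 6 rose and 4 did not pass (median log2 fold change -0.23). The shares over all tested genes were 34% lower and 33.4% higher. CHAF1A, the large CAF-1 subunit that deposits histones at replication forks, averaged 22.4 ± 4.06 CPM in miRNA libraries and 116 ± 10.6 CPM in vehicle libraries (SD, n = 4 each), 5.30-fold lower. HDAC1 was 2.26-fold lower, while BPTF, of NURF, rose 1.65-fold and ARID4B, of SIN3, 1.78-fold.

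Genes that have been reported as repressed by EZH2 did not move one way. Of 24 listed genes 19 were in the table and 14 were tested, of which 7 rose and 7 fell (median log2 fold change -0.07). Among all tested genes, 33.4% were called higher and 34% lower. TIMP2, an inhibitor of metalloproteinases, averaged 400 ± 12.7 CPM in miRNA libraries and 128 ± 8.82 CPM in vehicle libraries (SD, n = 4 each), a 3.12-fold rise. FBXO32, a ubiquitin ligase gene of muscle atrophy, rose 3.09-fold. TIMP3 was 1.69-fold lower and CDKN1C, a CDK inhibitor gene whose groups overlapped, 1.48-fold lower. MYOG, the gene of the late muscle factor myogenin, was 13.8-fold lower. That fold rests on low levels, 0.646 ± 0.372 CPM in miRNA libraries and 10.4 ± 1.89 CPM in vehicle libraries. The list was written from general knowledge and mixes genes of different tissues, the muscle gene MYOG among them. Whether EZH2 represses them in these cells was not tested, and the histone mark was not measured in the data used here.

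**Figure D4:**
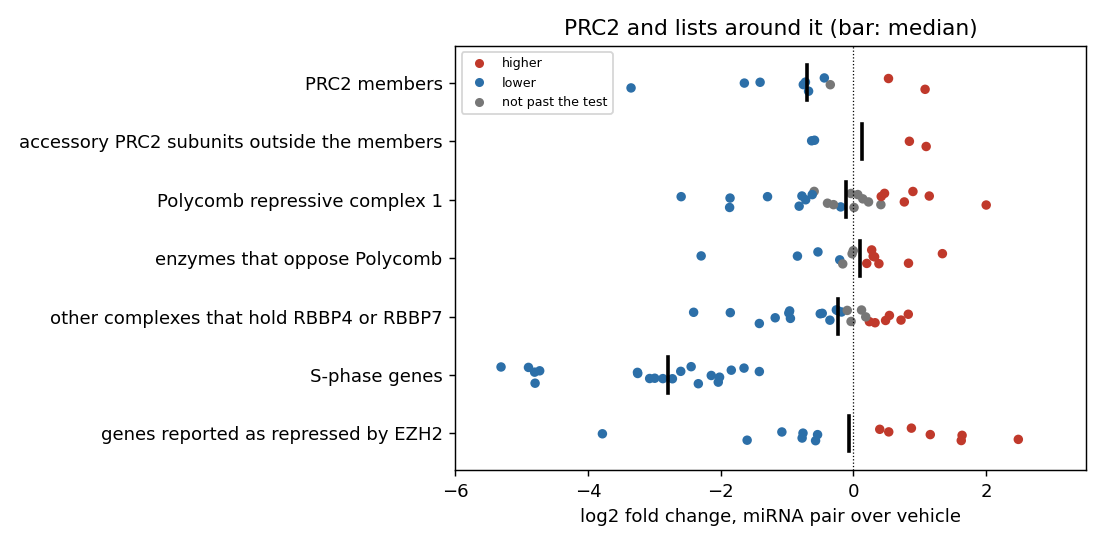
Log2 fold change, miRNA pair over vehicle (horizontal axis), of each tested gene of PRC2 and of the lists around it, 1 point per gene, with the list median as a black bar. The 20 genes listed as S-phase genes all lie below 0, and every other row holds genes on both sides of 0.

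The genes whose levels tracked those of EZH2 most closely over the 8 libraries were LGALS1, TUBA4A, RPS18, GNAI2 and HACD2. Likeness was the root mean square distance of centred log2 CPM, which was 0.05 for LGALS1, 0.07 for TUBA4A and 0.08 for the other 3, among the 10752 genes averaging 5 CPM or more. LGALS1, the galectin-1 gene, averaged 132 ± 11.4 CPM in miRNA libraries and 391 ± 18.5 CPM in vehicle libraries (SD, n = 4 each). The distance takes in the difference between the groups as well as the spread within them.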

How the data were processed

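The library kit keeps strand, per the labels' protocols. Whole-number read counts per gene symbol were deposited by the authors, 1 column per library, matched to samples through the library code in the labels. Tools listed by the submitters' processing notes, with no role, are HTSeq 0.5.3p3, DESeq2, TopHat2 2.0.13 and SAMtools 0.1.19.24, with GRCh38 as the build. Neither the annotation nor the strand setting is given in the sources used here.

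Genes were kept by filterByExpr (minimum count 10, minimum total 15), which left 12366 genes, scaled by TMM, and compared by the quasi-likelihood test of edgeR 4.0.16 under R 4.3.3 (robust, group only, two-sided), with Benjamini-Hochberg adjustment over all of them and a threshold of 0.05. The script was tested on simulated counts. SE is the size of the log2 fold change over the square root of F. Ratios used counts plus 0.5. No 2 libraries were duplicates (chi-square per gene at least 2.21 in replicate pairs, where sampling noise gives about 1).

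The genes and lists were chosen with earlier results of these data known. All 10 genes are named, with up to 4 per list by smallest adjusted p (mean at least 1 CPM), KDM6A, KDM6B, MYOG and CDKN1C, and the 5 genes most like EZH2. The MYOD1 and CHRNA1 values, the comparison of the muscle markers by library, and the overlapping genes and pseudogenes were added after the values were seen. Alternatives were other scalings, filters, DESeq2 1.42.0, limma 3.58.1 (voom), a replicate block, removal of mitochondrially encoded genes, and each library left out. Listed genes outside the table were not analysed here.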

Additional observations from a re-analysis of the deposited data

Results flagged for a closer look

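In 86 sets of 4 libraries, 1 library stood apart from the other 3 by Dixon's criterion in 4, about what chance gives at 1 in 20. The log2 count ratio of EZH2 to EZH1 was 1.116 in miRNA replicate 2, against 0.95 to 0.97 in the other miRNA libraries. The log2 count ratio of RBBP4 to RBBP7 was 2.01 in miRNA replicate 3, against 1.83 to 1.86. LCOR had 175 CPM in miRNA replicate 4, against 149 to 151 CPM. KDM6A had 22.0 CPM in miRNA replicate 3, against 16.03 to 17.04 CPM.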

How the results depend on the processing

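The 9 called PRC2 genes kept their direction and stayed past the threshold under all 17 alternatives, with 2 higher and 7 lower each time, and PHF1 as an eighth lower gene without vehicle replicate 3. The nearest to the threshold was EED with library size as the only scaling (log2 fold change -0.59, adjusted p = 0.000505). That scaling shifted the median of all genes by 0.14 on the log2 scale, and EZH1 and MTF2 then rose by 1.22 and 0.67. PHF1 passed only without vehicle replicate 3, with log2 fold changes from -0.42 to -0.28 as single libraries were left out. Of the lists, the accessory genes called lower numbered 1 in place of 2 with library size alone, upper-quartile scaling, DESeq2 and the replicate block, and 1 to 2 as libraries were left out. Genes listed as opposing Polycomb and called lower numbered 2 in place of 4 with library size alone. Those of that list called higher numbered 6 in place of 7 with DESeq2, limma-voom and the filter of 1 CPM in 4 libraries. The same held without vehicle replicate 2 or 4. Genes of the other complexes that hold RBBP4 or RBBP7 and called lower numbered 9 in place of 13 with library size alone. They numbered 10 with upper-quartile scaling and 11 with DESeq2. Same-numbered libraries deviated together only weakly (r from 0.01 to 0.06), yet each miRNA library correlated best with its own number. Whether the numbers mark shared batches cannot be told from this, and the main test did not take them as pairs. The replicate block gave 4102 genes higher and 4171 lower.

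The log2 differences of the ratios in pairs by replicate number were -2.72 for EZH2 to EZH1, 0.74 for RBBP4 to RBBP7, -3.93 for PHF19 to MTF2, -0.92 for PHF1 to MTF2, -0.88 for EZH2 to EED, -1.20 for EZH2 to SUZ12, -1.26 for JARID2 to MTF2. There the exact sign-flip permutation test cannot go below p = 0.125, and 3 libraries against 4 cannot go below 0.0571, so neither can pass. With single libraries left out they ran from -2.76 to -2.69 for EZH2 to EZH1, 0.69 to 0.78 for RBBP4 to RBBP7, -4.03 to -3.74 for PHF19 to MTF2, -1.001 to -0.81 for PHF1 to MTF2, -0.996 to -0.82 for EZH2 to EED, -1.24 to -1.16 for EZH2 to SUZ12, -1.38 to -1.19 for JARID2 to MTF2. PHF19 rests on 18 to 58 counts per miRNA library, and PHF1 has the largest SE of the 10 genes, 0.17.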
